A study of Homo sapiens and Mus musculus with 56 samples.

Results

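MOLM-13 and REH are established human leukaemia cell lines, compared here in the state in which the compounds of the study had not been given. The arrays were chosen by their titles as those of cells that received only the solvent DMSO, which gave 6 of the 56 arrays of the series, 3 of MOLM-13 and 3 of REH. MOLM-13 came from an acute myeloid leukaemia and carries the KMT2A-MLLT3 fusion (also called MLL-AF9), while REH came from a B-precursor acute lymphoblastic leukaemia and has no KMT2A fusion. MOLM-13 cells were kept in DMSO for 4 days and REH cells for 6 days, both in RPMI medium with foetal calf serum, and 50 ng of total RNA from each sample was amplified and hybridized to an Affymetrix expression array. Both are also known for lesions that the labels do not mention: REH carries an ETV6-RUNX1 fusion, and MOLM-13 an internal duplication in FLT3. Each side is 1 line, so the 3 arrays are replicates of that line and not of a lineage or a fusion. The labels call the replicates biological without naming separate cultures, and p-values then measure only the spread between these arrays.

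Myeloid progenitors are set up by the transcription factors PU.1 (encoded by SPI1) and the C/EBP family, which switch on granule enzymes, growth factor receptors and innate sensors. B-cell precursors are set up by E2A, EBF1 and PAX5, which switch on the recombination enzymes, the surrogate light chain and the signalling parts of the pre-B cell receptor. Fusions of KMT2A act on chromatin together with menin and DOT1L. They are known for keeping homeobox genes of the HOXA cluster and their cofactor MEIS1 active in either lineage.

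The promoters of 4 genes from these programmes are shown because the genes were among those furthest apart between the lines: RNASE2 and PRTN3 encode granule proteins, and BLNK and CD79A encode signalling parts of the pre-B cell receptor. They are the RefSeq windows of build GRCh38.p14, 300 bases each, at chr14:20955237-20955536 (RNASE2, plus strand), chr19:840749-841048 (PRTN3, plus strand), chr10:96271520-96271819 (BLNK, minus strand) and chr19:41877029-41877328 (CD79A, plus strand). Capitals mark matches, on either strand, to GAGGAA (the core of a PU.1 site), TTGCNNAA (C/EBP), CCCNNGGG (EBF1) or CANCTG (the E-box bound by E2A).
RNASE2: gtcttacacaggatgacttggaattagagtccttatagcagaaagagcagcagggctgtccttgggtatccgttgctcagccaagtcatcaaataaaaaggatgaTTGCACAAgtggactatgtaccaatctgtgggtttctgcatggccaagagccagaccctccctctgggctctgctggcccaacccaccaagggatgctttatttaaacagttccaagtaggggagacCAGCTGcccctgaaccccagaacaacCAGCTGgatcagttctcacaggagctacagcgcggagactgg
PRTN3: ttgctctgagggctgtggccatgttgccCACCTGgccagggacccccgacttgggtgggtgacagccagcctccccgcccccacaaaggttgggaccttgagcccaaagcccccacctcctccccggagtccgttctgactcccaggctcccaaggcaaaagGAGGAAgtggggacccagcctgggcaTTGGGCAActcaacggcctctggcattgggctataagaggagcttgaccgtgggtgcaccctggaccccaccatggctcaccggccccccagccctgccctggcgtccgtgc
BLNK: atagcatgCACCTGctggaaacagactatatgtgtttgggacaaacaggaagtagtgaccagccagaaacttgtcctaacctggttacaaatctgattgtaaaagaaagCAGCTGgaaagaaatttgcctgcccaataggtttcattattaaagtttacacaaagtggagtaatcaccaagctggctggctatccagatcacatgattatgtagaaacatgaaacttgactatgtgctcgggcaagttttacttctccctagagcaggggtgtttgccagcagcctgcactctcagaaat
CD79A: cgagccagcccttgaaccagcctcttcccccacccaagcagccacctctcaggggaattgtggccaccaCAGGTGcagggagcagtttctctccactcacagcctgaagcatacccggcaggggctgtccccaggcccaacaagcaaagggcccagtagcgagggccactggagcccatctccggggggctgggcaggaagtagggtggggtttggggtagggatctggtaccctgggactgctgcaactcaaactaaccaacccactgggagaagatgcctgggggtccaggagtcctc
Counted from the transcription start, RNASE2 has a C/EBP match at -145 and E-boxes at -18 and 9, and PRTN3 has a PU.1 match at -88, a C/EBP match at -62 and an E-box at -222. BLNK has E-boxes at -242 and -141, and CD79A has an E-box at -181. None of the 4 windows holds the EBF1 letters, and no matches overlap. Of 35116 promoter windows in the same table, 27.9% hold the PU.1 letters, 10.5% the C/EBP letters, 19.1% the EBF1 letters and 49.9% an E-box, so a match is a description of the window and not a site.

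The values are log2 signals per probe set, and 1 probe set stands for each gene. The 12 MOLM-13 arrays of the series had been deposited on a higher distribution (array medians 6.18 to 6.25) than the 32 arrays of the other human lines (5.54 to 5.66), so the 6 arrays were brought to a common distribution by quantile normalization before the test. Which arrays had been normalized together is not given in the sources used here, and line, lineage, fusion, days in culture and normalization set cannot be told apart in this comparison. The MOLM-13 replicates lay closer together (correlations 0.996 to 0.997 over genes) than the REH replicates (0.984 to 0.991). The 3' minus 5' signal of actin, a sign of RNA integrity, was 1.00 to 1.14 in MOLM-13 and 2.75 to 3.65 in REH, and that of GAPDH was 0.21 to 0.24 in MOLM-13 and 0.45, 0.56 and 1.08 in REH, highest in REH replicate 3. REH replicate 1 stood apart in another way: 24 genes read at least 2 log2 above both other REH arrays, against 0 in either of these, and for 24 of the 24 the level in RS4;11 or SEM, the B-precursor lines of the series with a KMT2A-AFF1 fusion, was at least 2 log2 above those other REH arrays. On the 10 DMSO arrays normalized together, the median level of the 24 genes was 6.56 on REH replicate 1, 3.43 on the other REH arrays, 11.76 in RS4;11, 11.22 in SEM and 10.49 in MOLM-13. MEIS1, S100A10 and CD44 are among the genes this touches, and their differences are given with and without that array. VPREB1 is another, and as it was not tested its levels are given. On MOLM-13 replicate 2, 6 genes read at least 2 log2 above both other MOLM-13 arrays, and 4 of these were that much higher in RS4;11 or SEM.

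Of 14437 genes tested, 5212 (36.1%) differed between the lines by at least 1 log2, which is at least 2-fold, with a limma p-value below 0.05 after adjustment. This is what called means below; the p-value alone passed 70.0% of the genes. Of these, 2456 (17.0% of the genes tested) were higher in MOLM-13 and 2756 (19.1%) were higher in REH, and the median difference over all genes was 0.01. The shares 17.0% and 19.1% are the background for every list count below. Differences of at least 3 log2 were called for 665 genes in MOLM-13 and 735 in REH, and of at least 5 log2 for 277 and 271. On the deposited values, in which all of MOLM-13 is shifted upwards, 5394 genes were higher in MOLM-13 and 1601 in REH, 77.1% against 47.1% of the called genes on the MOLM-13 side, with a median shift of 0.70. With the actin value as a covariate 3302 genes were called, 60.2% of them higher in MOLM-13, with a median standard error of 0.49 against 0.14 and a median difference of 0.29. Without REH replicate 1 the count was 5107.

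**Figure D1:**
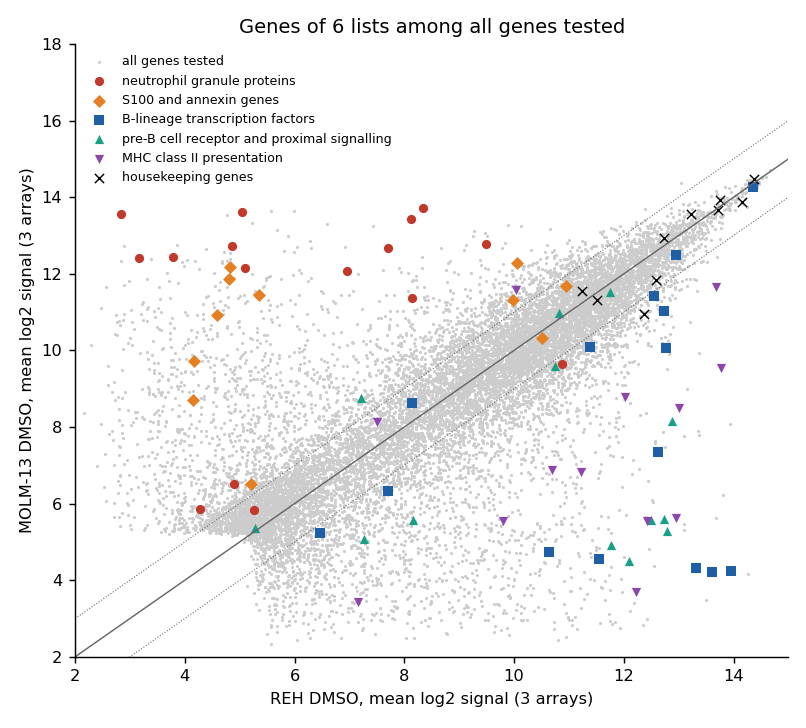
Mean log2 signal of each of the 14437 genes tested in MOLM-13 (y axis) against REH (x axis), 3 arrays each, with 6 gene lists picked out. The solid line marks equal signal and the dotted lines a difference of 1 log2. Most granule proteins (14 of 16) and S100 and annexin genes (9 of 11) lie above the upper dotted line, most B-lineage factors (12 of 15) and MHC class II genes (11 of 13) below the lower one, and housekeeping genes mostly along the diagonal.

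The identity of each line was checked against its defining markers. Of 10 myeloid markers 9 had a probe set of their own, and 8 of these were called higher in MOLM-13 (background 17.0%). MPO was the exception and was higher in REH. Of 10 B-precursor markers 9 had a probe set, and 8 were called higher in REH (background 19.1%), while VPREB1 fell under the filter on low signal. CD33 was not analysed here.

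Granule proteins, the contents of neutrophil and eosinophil granules, had the highest median difference of the myeloid lists. Of 16 tested members 14 were called higher in MOLM-13 and 1 higher in REH, with a median difference of 5.21 against 0.01 over all genes. RNASE2, an eosinophil granule ribonuclease, read 13.61, 13.63 and 13.46 on the MOLM-13 arrays and 2.54, 2.89 and 3.07 on the REH arrays, a difference of 10.74 ± 0.15 (log2 ± SE, 3 arrays against 3; adjusted p = 1.78e-09). This was the furthest of all named genes on the MOLM-13 side, and the REH values lie under 5.18, the level that 40% of probe sets do not pass. A group under that level may show only background signal, so such a difference is one of array signal and gives no ratio of transcripts.

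PRTN3, which encodes proteinase 3, read 12.39, 12.60 and 12.26 in MOLM-13 and 3.13, 3.20 and 3.18 in REH, a difference of 9.25 ± 0.12. ELANE, neutrophil elastase, read 12.72, 12.80 and 12.66 against 4.85, 4.84 and 4.90 (7.87 ± 0.10). AZU1†, azurocidin, read 12.20, 12.21 and 12.07 against 5.16, 5.04 and 5.09 (7.07 ± 0.10). The mark † stands beside a gene read on a probe set that may also bind other transcripts. These serine protease genes lie next to each other on chromosome 19, and in each of them every MOLM-13 array was above every REH array. LYZ†, lysozyme, read 13.51, 13.67 and 13.66 in MOLM-13 and 5.41, 4.93 and 4.77 in REH (8.58 ± 0.17). MS4A3, a membrane protein of granulocyte and monocyte progenitors, differed by 8.66 ± 0.16, SRGN, the proteoglycan that packs granules, by 5.37 ± 0.15, and CFD†, complement factor D, by 5.12 ± 0.17.

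MPO, myeloperoxidase, ran the other way. It read 9.70, 9.52 and 9.68 in MOLM-13 and 11.05, 10.41 and 11.14 in REH, a difference of -1.23 ± 0.20 (adjusted p = 0.000689), and every REH array was above every MOLM-13 array. Of 2 MPO probe sets above the filter only 1 was higher in REH by at least 1 log2, and 0 in MOLM-13. With the actin value as a covariate the difference turned to 0.39. The call was lost on the deposited values (-0.46), with the GAPDH value as a covariate (-0.82), with the mean of the probe sets (-0.75), with array weights (-0.91) and without REH replicates 1 and 3 (-0.79). On the arrays of the same lines given EPZ004777 the difference had the opposite sign, 1.41 (adjusted p = 1.36e-05). In RS4;11 and SEM the MPO probe set read 4.38 to 4.77 (levels in these lines are from the 10 DMSO arrays normalized together, 2 arrays for each). CTSG, cathepsin G, read 11.34, 11.40 and 11.39 in MOLM-13 and 8.39, 8.01 and 8.01 in REH, so REH was not at the floor for this granule protease either (3.24 ± 0.13). The late granule genes of mature neutrophils were dim in both lines: LTF† read 5.62 to 6.13 in MOLM-13 and 4.09 to 4.41 in REH, and MMP8, MMP9† and DEFA4 are either under the filter or uncalled.

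**Figure D2:**
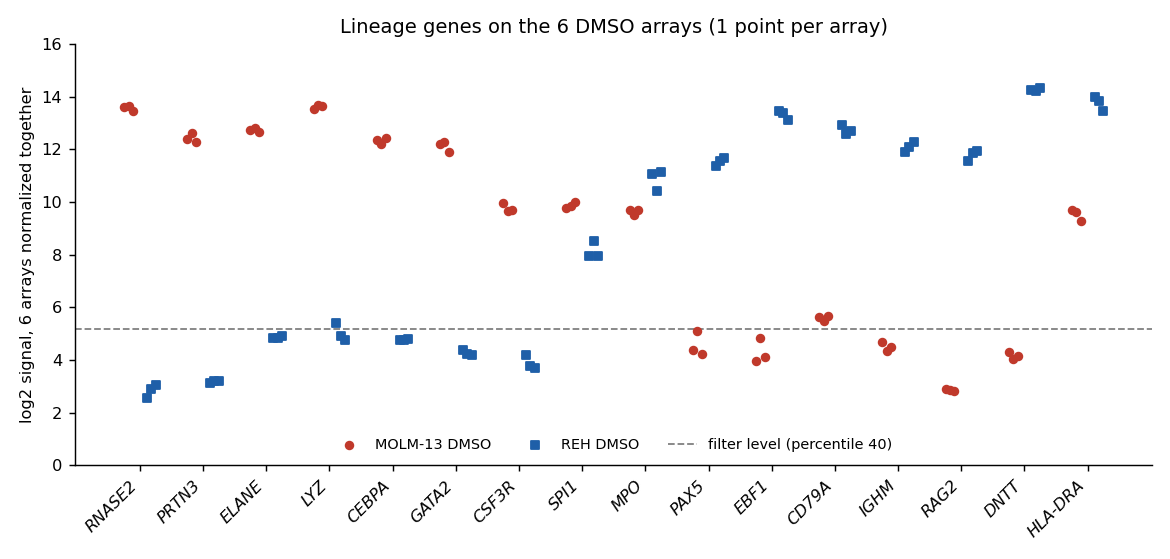
Log2 signal of 16 lineage genes on each of the 6 DMSO arrays after common normalization, 1 point per array, with the filter level as a dashed line. For 15 of the genes the side is that of the label, and MPO is the exception with REH above MOLM-13.

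Myeloid transcription factors were called higher in MOLM-13 for 9 of 12 members and higher in REH for 0, with a median difference of 2.96. CEBPA, which directs granulocyte commitment, read 12.36, 12.19 and 12.43 in MOLM-13 and 4.75, 4.74 and 4.80 in REH (7.56 ± 0.11, adjusted p = 1.78e-09). GATA2, a factor of stem cells and early myeloid progenitors, read 12.21, 12.27 and 11.88 against 4.38, 4.21 and 4.19 (7.86 ± 0.14). CEBPD† differed by 5.16 ± 0.13, NFE2† by 4.28 ± 0.14 and KLF4†, a monocyte factor, by 4.05 ± 0.14. These REH values lie near or under the filter level, whereas SPI1 was present in both lines. SPI1, which encodes PU.1, read 9.77, 9.85 and 9.98 in MOLM-13 and 7.94, 8.51 and 7.96 in REH, a smaller difference of 1.73 ± 0.17 (adjusted p = 4.04e-05). IRF8, a factor used by monocytes and B cells, read 13.05 to 13.09 in MOLM-13 and 9.25 to 9.66 in REH (3.59 ± 0.13). CEBPB (0.42), CEBPE (-0.47) and ZEB2† (0.71) did not reach 1 log2.

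Myeloid surface receptors were called higher in MOLM-13 for 16 of 20 members, with 1 higher in REH and a median difference of 2.27. FCGR1A, the high-affinity receptor for IgG, read 10.73, 10.82 and 10.73 in MOLM-13 and 2.64, 2.95 and 2.81 in REH (7.96 ± 0.12). SIRPB1, an activating receptor, differed by 7.09 ± 0.23, and ITGAX, the integrin chain CD11c, by 6.19 ± 0.18. Of 2 ITGAX probe sets above the filter only 1 was higher in MOLM-13 by at least 1 log2, and 0 in REH. TREM1, which amplifies inflammatory signals, differed by 5.76 ± 0.12 and FCER1G, the signalling chain of Fc receptors, by 4.83 ± 0.17. CD14, the monocyte co-receptor for bacterial lipopolysaccharide, stayed under the filter, with 5.16 to 5.19 in MOLM-13 and 4.05 to 4.11 in REH. ITGAM†, the integrin chain CD11b, read 10.31 to 10.68 against 9.26 to 9.61 and missed the threshold at 0.98 ± 0.15. LILRA2 was the member called higher in REH (-1.12 ± 0.11).

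Growth factor and cytokine receptors had members on both sides, with 7 of 15 called higher in MOLM-13 (background 17.0%) and 4 higher in REH (background 19.1%). CSF3R†, the receptor for granulocyte colony-stimulating factor, read 9.96, 9.65 and 9.71 in MOLM-13 and 4.19, 3.77 and 3.71 in REH (5.88 ± 0.16). IL6R differed by 4.58 ± 0.12, IL3RA by 4.17 ± 0.12 and CSF1R, the macrophage growth factor receptor, by 2.71 ± 0.17. On the other side, IL7R, the receptor for the cytokine that B-cell precursors need, read 13.53, 13.33 and 13.27 in REH and 9.92, 10.05 and 9.80 in MOLM-13 (-3.46 ± 0.12), and its partner chain IL2RG differed by -2.60 ± 0.15. MOLM-13 was thus well above the filter level for both IL7R chains. FLT3, the progenitor receptor tyrosine kinase, was bright in both lines, at 12.03, 11.99 and 11.93 in MOLM-13 and 11.27, 10.80 and 11.15 in REH. Its difference of 0.91 ± 0.14 was not called at 1 log2 and was called on the deposited values (1.75) and without REH replicate 1 (1.01).

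Innate sensing genes were called higher in MOLM-13 for 10 of 17 members (background 17.0%) and higher in REH for 3 (17.6%, near the background of 19.1%). IL18, an inflammasome product, read 10.34, 10.23 and 10.39 in MOLM-13 and 3.08, 2.92 and 3.01 in REH (7.32 ± 0.11). NLRP3, the inflammasome sensor, differed by 5.14 ± 0.16, NOD2, a sensor of bacterial cell wall, by 4.39 ± 0.11 and TLR4† by 3.22 ± 0.15. LY96, the partner of TLR4 at the membrane, was higher in REH, at 11.50, 11.29 and 11.22 against 9.10, 9.28 and 9.44 (-2.06 ± 0.13). IL1B was also higher in REH (-2.31 ± 0.18), with 9.38 to 9.91 against 7.12 to 7.56. Of 5 subunits of the phagocyte oxidase only NCF1† was called (2.26 ± 0.13), and CYBB†, its catalytic chain, read 9.11 to 9.38 in MOLM-13 and 9.10 to 9.14 in REH.

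S100 and annexin genes, which encode small calcium-binding and membrane-binding proteins, were called higher in MOLM-13 for 9 of 11 members, with a median of 4.54. S100A10 read 12.22, 12.28 and 12.06 in MOLM-13 and 7.59, 3.15 and 3.72 in REH, so REH replicate 1 lay about midway between the lines. The difference was 7.37 ± 1.01 with that array and 8.81 ± 0.19 without it. S100A11 read 11.82 to 11.89 in MOLM-13 and 6.10, 3.19 and 5.14 in REH (7.05 ± 0.62). Here REH replicate 2 was the array furthest from the others. The difference was 7.74 ± 0.53 without REH replicate 1 and 6.26 ± 0.27 without REH replicate 2. S100P (6.34 ± 0.12), S100A6 (6.10 ± 0.17) and ANXA1 (5.57 ± 0.12) had REH arrays closer together. The list count was 9 of 11 also without REH replicate 1. The neutrophil pair S100A8† and S100A9 differed by 4.54 ± 0.16 and 1.31 ± 0.18, and S100A9 was dim in both lines, at 6.36 to 6.62 and 4.88 to 5.56.

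Adhesion, chemokine, lipid mediator and lysosome genes had more members called higher in MOLM-13 than in REH. Of 13 chemokine genes 10 were called higher in MOLM-13 and 0 in REH, of 17 adhesion genes 9 and 3, of 10 eicosanoid genes 6 and 1, and of 16 lysosome genes 8 and 0. The backgrounds were 17.0% in MOLM-13 and 19.1% in REH, and the REH share of the adhesion genes (17.6%) was near the latter. CCR2, the monocyte receptor, read 10.91, 11.20 and 10.95 in MOLM-13 and 3.51, 3.30 and 3.53 in REH (7.58 ± 0.13). CCL5, another chemokine, differed by 6.57 ± 0.11. ITGAL†, the alpha chain of LFA-1, read 13.20, 13.06 and 13.15 against 5.92, 5.42 and 5.72 (7.45 ± 0.14), and PECAM1 differed by 7.12 ± 0.18. CD44†, the hyaluronan receptor, read 12.31 to 12.44 in MOLM-13 and 6.39, 4.17 and 3.90 in REH (7.57 ± 0.58, and 8.39 ± 0.12 without REH replicate 1). PLA2G4A, the phospholipase that releases arachidonic acid, differed by 5.87 ± 0.22 and PTGS2, an inducible cyclooxygenase, by 3.94 ± 0.18, whereas ALOX5† did not differ at this precision (-0.25 ± 0.30). ICAM2† (-2.42 ± 0.14) and CD58† (-1.59 ± 0.13) were higher in REH.

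B-lineage transcription factors were called higher in REH for 12 of 15 members and higher in MOLM-13 for 0, with a median of -1.70 against 0.01 over all genes. EBF1, which specifies the B lineage, read 13.46, 13.39 and 13.10 in REH and 3.98, 4.84 and 4.11 in MOLM-13 (-9.01 ± 0.23, adjusted p = 1.39e-08). PAX5, which commits cells to it, read 11.38, 11.57 and 11.68 in REH and 4.39, 5.08 and 4.23 in MOLM-13 (-6.98 ± 0.22). In both, MOLM-13 replicate 2 was the highest of the MOLM-13 arrays, and without it the differences were -9.26 and -7.21. Of 2 PAX5 probe sets above the filter only 1 was higher in REH by at least 1 log2, and 0 in MOLM-13. POU2AF1, an octamer coactivator of B cells, differed by -9.39 ± 0.15, LEF1† by -9.72 ± 0.32, BACH2† by -5.89 ± 0.25 and FOXO1†, which drives recombinase expression, by -5.29 ± 0.12. TCF3, which encodes E2A, was bright in both lines (14.25 to 14.27 in MOLM-13, 14.32 to 14.38 in REH) and differed by -0.10 ± 0.10, and IKZF1 differed by -0.46 ± 0.10. On the deposited values 7 of the 15 were called higher in REH and 1 higher in MOLM-13.

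Genes of the pre-B cell receptor and its proximal signalling were called higher in REH for 9 of 13 members and higher in MOLM-13 for 1, with a median of -2.59. IGHM, the mu heavy chain, read 11.91, 12.07 and 12.29 in REH and 4.68, 4.33 and 4.51 in MOLM-13 (-7.58 ± 0.14). Of 4 IGHM probe sets above the filter 2 were higher in REH by at least 1 log2, and 0 in MOLM-13. BLNK†, the adaptor whose promoter is shown above, read 12.90, 12.62 and 12.86 against 5.43, 5.47 and 4.96 (-7.51 ± 0.16). CD79A, the signalling chain shown with it, read 12.92, 12.59 and 12.70 against 5.61, 5.48 and 5.67 (-7.15 ± 0.12). CD79B† differed by -6.93 ± 0.19 on a marked probe set, and its unmarked probe set gave 0.76, the opposite sign. IGLL1, part of the surrogate light chain, was higher in REH at 12.77 to 12.95, and MOLM-13 read 8.04 to 8.37 (-4.71 ± 0.13).

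VPREB1, the other part of the surrogate light chain, was under the filter, with 7.91, 3.60 and 3.73 in REH and 4.00 to 4.51 in MOLM-13. REH replicate 1 is the outlying value here too, and RS4;11 and SEM read 11.77 to 12.61. BTK, the kinase downstream of the receptor, read 10.88 to 11.07 in MOLM-13 and 10.47 to 11.00 in REH (0.14 ± 0.16), and DAPP1† was higher in MOLM-13 (1.54 ± 0.30). Among the Src-type kinases FGR† (5.65 ± 0.14) and LYN (3.47 ± 0.12) were higher in MOLM-13, and BLK (-2.20 ± 0.12) and LCK† (-2.14 ± 0.19) in REH.

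B cell surface antigens were called higher in REH for 6 of 12 members (background 19.1%) and higher in MOLM-13 for 2 (16.7%, near the background of 17.0%). CD24† read 13.64, 13.66 and 13.71 in REH and 5.50, 5.98 and 5.38 in MOLM-13 (-8.05 ± 0.16). MME†, the CD10 antigen of common acute lymphoblastic leukaemia, read 13.14, 13.03 and 13.11 against 5.19, 5.56 and 5.22 (-7.77 ± 0.13). CD22, an inhibitory receptor, differed by -5.52 ± 0.15. MME† set REH apart from the other B-precursor lines as well, since RS4;11 read 5.85 and 5.74 and SEM 5.12 and 5.23 on the 10 arrays normalized together. CD37, a tetraspanin, and FCER2†, the CD23 antigen, were the members higher in MOLM-13 (3.27 ± 0.16 and 4.15 ± 0.14).

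Recombination of antigen receptor genes needs enzymes particular to lymphocyte precursors and repair factors present in all cells. DNTT, terminal transferase, was the furthest of all named genes on the REH side. It read 14.23, 14.22 and 14.34 in REH and 4.29, 4.05 and 4.17 in MOLM-13 (-10.09 ± 0.11, adjusted p = 1.78e-09). RAG2 read 11.55, 11.85 and 11.93 in REH and 2.88, 2.87 and 2.83 in MOLM-13 (-8.92 ± 0.13). RAG1 read 14.05, 14.00 and 13.76 against 7.94, 8.15 and 8.12 (-5.86 ± 0.12), so MOLM-13 was above the filter level for RAG1 and under it for RAG2 and DNTT. Of 10 tested members 4 were called higher in REH and 0 in MOLM-13, the fourth being LIG4 (-1.42 ± 0.15), which was lost on the deposited values. The repair factors XRCC5† (-0.29), XRCC6 (-0.17) and PRKDC (0.84) were not called.

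MHC class II genes, which present peptides to T helper cells, were called higher in REH for 11 of 13 members, with a median of -4.23. HLA-DOA read 12.44, 12.21 and 12.02 in REH and 3.65, 3.63 and 3.81 in MOLM-13 (-8.53 ± 0.14). Of 3 HLA-DOA probe sets above the filter only 1 was higher in REH by at least 1 log2, and 0 in MOLM-13. HLA-DRA read 14.00, 13.84 and 13.46 against 9.70, 9.62 and 9.29 (-4.23 ± 0.17), and HLA-DPB1† differed by -7.33 ± 0.12. CIITA, the coactivator that switches the class II genes on, read 9.65 to 10.04 in REH and 5.35 to 5.80 in MOLM-13 (-4.25 ± 0.16). CTSS, a protease that trims the class II chaperone, was the member higher in MOLM-13 (1.55 ± 0.12). HLA genes resemble each other, and probe sets may bind more than the gene they are assigned to. Of 16 class I genes 0 were called higher in MOLM-13 (background 17.0%) and 5 in REH (background 19.1%), and on the deposited values these counts were 4 and 0.

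**Figure D3:**
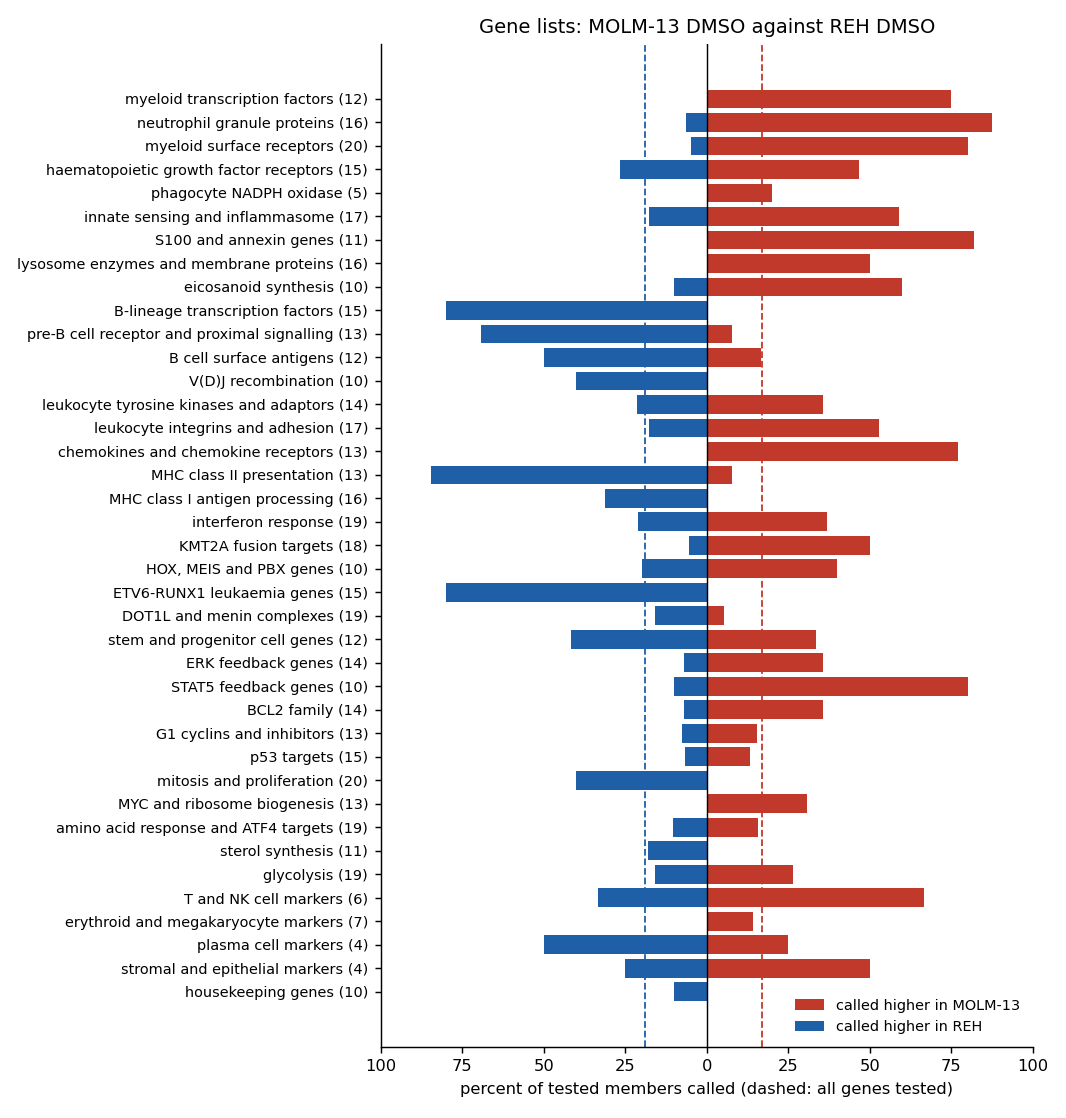
Percent of the tested members of 39 gene lists (number tested in brackets) called higher in MOLM-13, to the right, or in REH, to the left. Dashed lines mark the shares over all genes, 17.0% and 19.1%; myeloid lists lie mostly to the right and B-lineage and class II lists to the left.

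Known targets of KMT2A fusions were called higher in MOLM-13 for 9 of 18 tested members (background 17.0%) and higher in REH for 1, with a median of 1.53. The HOXA genes of this list were not analysed here. MEIS1, the homeobox cofactor, read 11.29, 11.25 and 11.29 in MOLM-13 and 7.24, 3.35 and 3.34 in REH, with REH replicate 1 far above the other REH arrays. The difference was 6.63 ± 0.94 (adjusted p = 0.000357) and, without that array, 7.99 ± 0.09. RUNX2, a Runt family factor, read 12.84, 12.86 and 12.89 in MOLM-13 and 7.25, 5.91 and 5.66 in REH (6.59 ± 0.37), and LAMP5 read 11.88 to 12.12 against 7.28, 5.30 and 5.79 (5.89 ± 0.44). Without REH replicate 1 the latter differences were 7.11 and 6.50, and 10 of the 18 were called higher in MOLM-13.

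Set beside the lines with a KMT2A-AFF1 fusion, the targets fell into different patterns. On the 10 arrays normalized together MEIS1 read 11.09 to 11.13 in MOLM-13 and 11.81 to 12.11 in RS4;11 and SEM, RUNX2 read 11.92 to 12.71 in those lines, and PBX3 10.74 to 11.58. CCNA1, an A-type cyclin, read 11.52 to 11.71 in MOLM-13 and no more than 6.22 on any array of the other lines. DACH1† read 10.10 to 10.32 in MOLM-13, 4.34 to 4.59 in REH and 4.31 to 4.69 in RS4;11 and SEM. IGF2BP2 was bright in MOLM-13 and RS4;11 but read 7.07 and 7.29 in SEM, under the REH arrays (8.435, 8.59 and 9.02). PROM1†, the CD133 antigen, was the member higher in REH: it read 2.98, 3.12 and 3.02 in MOLM-13 and 11.48, 10.97 and 10.89 in REH (-8.07 ± 0.17), and 13.39 to 13.50 in RS4;11 and SEM. MEF2C† (-0.38), CDK6 (-0.58) and MYB (0.02) were bright in all 4 lines and did not reach 1 log2.

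**Figure D4:**
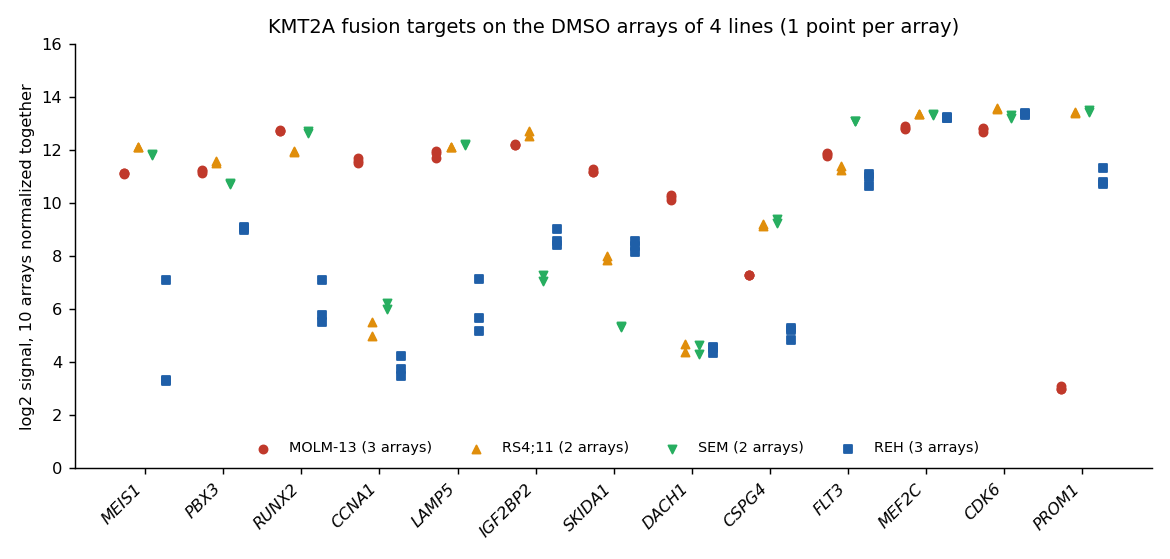
Log2 signal of 13 KMT2A fusion targets on the 10 DMSO arrays of 4 lines, normalized together, 1 point per array. MOLM-13, RS4;11 and SEM carry a KMT2A fusion and REH does not; CCNA1 and DACH1† are bright in MOLM-13 alone, and PROM1† is bright in every line but MOLM-13.

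The genes of the fusion itself and of its partners differed less evenly. MLLT3†, the partner in MOLM-13, read 8.84, 8.74 and 8.85 in MOLM-13 and 4.00 to 5.15 in REH (4.10 ± 0.28), and whether its probe set reads the fusion transcript was not tested. KMT2A was lower in MOLM-13, at 9.65, 9.65 and 9.68 against 11.78, 11.58 and 11.18 (-1.85 ± 0.16). Of 9 KMT2A probe sets above the filter 6 were higher in REH by at least 1 log2, and 0 in MOLM-13. Which of them read the fusion transcript was not tested. DOT1L read 8.98, 8.80 and 8.90 against 8.58, 8.62 and 9.30, and these ranges overlap (0.06 ± 0.20, adjusted p = 0.8). Of 3 DOT1L probe sets above the filter, however, 1 was higher in MOLM-13 by at least 1 log2, and 0 in REH. MEN1†, menin, read 8.35, 8.11 and 8.17 in MOLM-13 and 9.31, 8.70 and 9.50 in REH, and missed the threshold at -0.96 ± 0.20. CDK9, the elongation kinase, differed by -1.82 ± 0.15 and PSIP1, the chromatin tether of menin, by -1.18 ± 0.10. Of 3 CDK9 probe sets above the filter only 1 was higher in REH by at least 1 log2, and 0 in MOLM-13. Of the 19 genes of these complexes 1 was called higher in MOLM-13 and 3 in REH (background 17.0% and 19.1%), and on the deposited values 4 and 2.

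Genes known to mark leukaemias with ETV6-RUNX1 were called higher in REH for 12 of 15 members and higher in MOLM-13 for 0, with a median of -3.41. PTPRK, a receptor tyrosine phosphatase, read 13.71, 13.41 and 13.39 in REH and 3.61, 3.36 and 3.49 in MOLM-13 (-10.01 ± 0.13). CLIC5 read 10.61, 10.86 and 10.94 against 2.32, 2.58 and 2.39 (-8.38 ± 0.13), and PCLO differed by -7.58 ± 0.13. The lines with a KMT2A-AFF1 fusion differed in these genes. PTPRK read 8.80 and 8.74 in RS4;11 and 12.22 and 12.32 in SEM, so SEM was near REH, whereas CLIC5 read 2.45 to 2.58 and PCLO 3.88 to 5.23 in RS4;11 and SEM. EPOR, the erythropoietin receptor, was not called between MOLM-13 and REH (-0.19 ± 0.15), and RS4;11 and SEM read lower, at 6.44 to 7.64. ETV6 itself read 5.39, 4.62 and 5.36 in REH and 11.22, 11.33 and 11.34 in MOLM-13 (6.17 ± 0.21, adjusted p = 6.15e-08), with all 5 of its probe sets above the filter on the same side.

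Stem and progenitor genes had no common side, with 4 of 12 called higher in MOLM-13 (background 17.0%) and 5 in REH (background 19.1%). ERG†, an ETS factor of stem cells, read 12.55, 12.47 and 12.64 in REH and 4.46, 4.36 and 4.27 in MOLM-13 (-8.19 ± 0.11). MECOM, which encodes the zinc finger factor EVI1, read 11.27, 11.57 and 11.30 against 3.48, 5.23 and 3.39 (-7.35 ± 0.45, and -7.90 without MOLM-13 replicate 2, its highest MOLM-13 array). LMO2† was higher in MOLM-13 (2.71 ± 0.21), as was GATA2. CD34† was under the filter, at 3.15 to 3.18 in MOLM-13 and 4.93 to 5.35 in REH.

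Of 10 feedback and target genes of STAT5 signalling 8 were called higher in MOLM-13 (background 17.0%) and 1 in REH. Of 14 feedback and target genes of ERK signalling 5 were called higher in MOLM-13 and 1 in REH, and 8 were not called. SOCS3, a suppressor of JAK signalling, read 10.11, 9.90 and 10.10 in MOLM-13 and 5.14, 4.81 and 4.93 in REH (5.08 ± 0.13). CISH†, another, differed by 4.95 ± 0.15 and CCND2†, cyclin D2, by 3.86 ± 0.14, while BCL6, a repressor, was higher in REH (-3.28 ± 0.12). SPRED1, a RAS inhibitor, read 9.08, 9.18 and 9.24 against 3.23, 2.39 and 2.49 (6.46 ± 0.22), and EGR1† differed by 4.01 ± 0.23. DUSP6†, an ERK phosphatase, was the member higher in REH, at 12.52 to 12.81 against 10.83 to 11.19 (-1.61 ± 0.14), and was not called on the deposited values (-0.80).

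Among BCL2 family genes, BCL2A1 read 10.55, 10.37 and 10.38 in MOLM-13 and 4.45, 5.16 and 4.94 in REH (5.59 ± 0.18), and BIK and BMF, which promote cell death, were also higher in MOLM-13 (2.27 ± 0.13 and 2.54 ± 0.15). HRK, another of that kind, read 10.43, 10.84 and 9.05 in REH and 5.50 to 5.96 in MOLM-13 (-4.38 ± 0.41). BCL2 (-0.41) and MCL1 (0.99) did not reach 1 log2. Of 14 tested members 5 were called higher in MOLM-13 (background 17.0%) and 1 in REH (background 19.1%).

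Proliferation genes were called higher in REH for 8 of 20 members (background 19.1%) and higher in MOLM-13 for 0. MKI67† read 11.00, 11.18 and 11.37 in REH and 8.99, 9.59 and 8.96 in MOLM-13 (-2.01 ± 0.19), and MCM5†, a helicase subunit, differed by -2.00 ± 0.14. The count was 2 on the deposited values, 3 with the GAPDH value as a covariate and 0 with the actin value. With the actin value the median standard error over all genes was 0.49 against 0.14. Neither the actin nor the GAPDH values of the lines overlap, so these fits cannot separate line from RNA integrity. The cause of the lower counts was not tested. CDKN1C, an inhibitor of cyclin-dependent kinases, was higher in REH (-3.53 ± 0.19), and CCND1 in MOLM-13 (2.77 ± 0.13). Of 4 CDKN1C probe sets above the filter only 1 was higher in REH by at least 1 log2, and 0 in MOLM-13. The p53 targets had 2 of 15 members higher in MOLM-13 (background 17.0%) and 1 in REH (background 19.1%), and 8 and 0 on the deposited values. Glycolysis genes had 5 of 19 and 3 beside the same backgrounds, and 10 and 2 on the deposited values. PFKM†, a phosphofructokinase, read 11.51, 11.33 and 11.56 in REH and 7.42, 7.26 and 7.37 in MOLM-13 (-4.12 ± 0.11). Housekeeping genes had a median of 0.02, and of 10 only SDHA† was called (-1.41 ± 0.12).

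Interferon response genes divided without a common side, with 7 of 19 higher in MOLM-13 (background 17.0%) and 4 higher in REH. The REH share of 21.1% was near its background of 19.1%. IFI44L read 7.19, 8.06 and 7.77 in MOLM-13 and 4.97, 5.49 and 4.85 in REH (2.57 ± 0.25), and OAS3 read 9.50, 9.77 and 10.44 in REH and 6.98, 7.78 and 7.43 in MOLM-13 (-2.51 ± 0.28). MOLM-13 replicate 1 was the lowest of its group for both. On the arrays given EPZ004777 the IFI44L difference had the opposite sign, -2.53 (adjusted p = 3.59e-07). Without MOLM-13 replicate 1 the list had 2 members higher in REH.

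The genes furthest apart also included several outside the lists. BEX1 read 12.74, 12.61 and 12.79 in MOLM-13 and 2.74, 2.85 and 3.07 in REH (9.83 ± 0.12). CHI3L1, a secreted chitinase-like protein, differed by 9.50 ± 0.13, ZNF521, a zinc finger cofactor, by 8.89 ± 0.37, SASH1 by 8.82 ± 0.17 and MGST1†, a microsomal glutathione transferase, by 8.35 ± 0.10. BEX1 (2.78 to 3.10), CHI3L1 (2.69 to 2.87) and SASH1 (2.55 to 2.95) were at the same low level in RS4;11 and SEM. In these lines MGST1† read 3.87 to 4.07, and ZNF521 read 7.02 to 7.41, above the REH arrays (3.10 to 4.68). TEX15, a meiotic gene, differed by 8.64 ± 0.11 and was also bright in SEM (10.02 and 10.05) but not in RS4;11 (2.42 and 2.50). On the REH side stood CHST15, a sulphotransferase (-9.50 ± 0.17), DDIT4L (-9.45 ± 0.13), SLC7A3, a transporter of cationic amino acids (-9.17 ± 0.17), DSG2, a desmosomal cadherin (-8.94 ± 0.14), and SCD5, a fatty acid desaturase (-8.93 ± 0.13). Of 2 SCD5 probe sets above the filter only 1 was higher in REH by at least 1 log2, and 0 in MOLM-13.

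Markers of other blood and tissue cells were dim in part. Of 13 T and NK cell markers 7 were under the filter, 4 were called higher in MOLM-13 and 2 higher in REH, and the mean level of the list was 5.24 to 5.31 in MOLM-13 and 4.85 to 4.98 in REH. CD3D (8.85, 9.22 and 9.22 against 4.91 to 4.99, a difference of 4.14 ± 0.13) and NKG7 (2.73 ± 0.15) were higher in MOLM-13, TRAT1† (-3.82 ± 0.24) and PRF1 (-1.69 ± 0.23) were higher in REH, and CD3E, CD3G and CD2 were under the filter. The erythroid and megakaryocyte list lay at 5.26 to 5.39 and 4.89 to 4.98, and the stromal and epithelial list at 5.33 to 5.40 and 4.59 to 4.79. HBD (1.60 ± 0.13) was the erythroid member called, higher in MOLM-13. Of 4 stromal and epithelial members tested, KRT18† (3.21 ± 0.10) and LUM† (3.89 ± 0.14) were higher in MOLM-13 and COL1A1† (-1.98 ± 0.12) in REH. The plasma cell list lay at 6.21 to 6.31 in MOLM-13 and 7.40 to 7.66 in REH, with SDC1 (-4.32 ± 0.18) and MZB1† (-4.95 ± 0.18) higher in REH and PRDM1 (2.40 ± 0.12) in MOLM-13. Fewer cells of a type and less RNA per cell cannot be told apart in such bulk samples.

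Genes of chromosome 8 stood apart as a whole. Their median difference was 0.78 over 493 genes, with 41.2% called higher in MOLM-13 and 8.32% in REH, against 17.0% and 19.1% over all genes. Each of the 9 pairs of a MOLM-13 and a REH array gave a median between 0.68 and 0.84. The median was 0.55 when MOLM-13 was set against RS4;11 and 0.69 against SEM, and REH differed from those lines by -0.19 and -0.05. Chromosome 13 followed with 0.38 over 263 genes, 0.34 against RS4;11 and 0.77 against SEM, and here REH itself was 0.44 above SEM. The other autosomes and chromosome X lay between -0.21 (chromosome 14) and 0.15 (chromosome 6). Chromosomes are those of RefSeq build GRCh38.p14, the medians are descriptions with no test, and their cause was not tested.

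**Figure D5:**
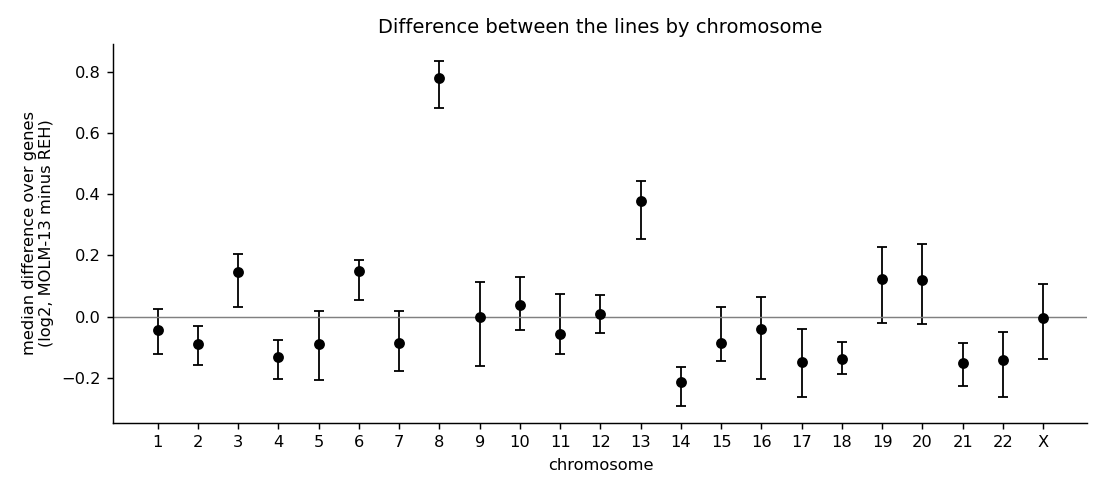
Median difference over the genes of each chromosome, MOLM-13 minus REH on the log2 scale. Bars span the lowest and highest median among the 9 pairs of arrays; chromosome 8 lies at 0.78 and chromosome 13 at 0.38, and the others between -0.21 and 0.15.

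The same 2 lines were also profiled after EPZ004777, an inhibitor of DOT1L, at 3 µM for the same days, on 6 further arrays. There 5217 of 14558 genes (35.8%) were called, 2572 (17.7%) higher in MOLM-13 and 2645 (18.2%) higher in REH, and on the deposited values 5600 and 1591. Of the genes higher in MOLM-13, 2124 were called on that side in both sets of arrays, 86.5% of the DMSO calls and 82.6% of the EPZ004777 calls, and 7 were called on opposite sides. Of those higher in REH the numbers were 2326, 84.4%, 87.9% and 2. On the EPZ004777 arrays the actin value was 0.87 to 1.04 in MOLM-13 and 2.45 to 2.87 in REH. These ranges do not overlap either, so the shared calls cannot separate line from RNA integrity. RNASE2 was at 11.07 there, DNTT at -9.99, EBF1 at -9.71 and MEIS1 at 6.46. Other named genes had the opposite sign to that in DMSO: IFI44L (given above), IFIT1 at -1.88 against 1.71, IFIT2 at -0.89 against 1.53, and MPO (given above). SPRED1 was at 2.35 there against 6.46 in DMSO, and S100A8† at 6.94 against 4.54. The change between the treatments was not tested. The chromosome 8 median was 0.76 on these arrays.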

How the data were processed

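Total RNA of the 6 samples was read on Affymetrix arrays. Per the submitters' processing notes, the authors used affy and R 3.0.2, and the values they deposited are RMA estimates on the log2 scale. RMA fits a background and a common distribution to the arrays it is given, so values of sets normalized apart are not on 1 scale. Of 54675 human probe sets, 41097 had 1 gene symbol in the platform annotation, 1801 had several and 11777 none. Those with several or none and control probe sets were left out, which left 41091 for 19775 genes, 41037 with a symbol updated by Entrez identifier.

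The sorted values of the lines differed by up to 0.859 log2 at a percentile, above a tolerance of 0.05, so the 6 arrays were quantile normalized and the deposited values became an alternative. Each gene was represented by its brightest probe set on average, kept where 3 or more of the 6 arrays placed it over percentile 40. Differences were tested with lmFit and eBayes of limma 3.58.1 (R 4.3.3), 1 coefficient per line, with Benjamini-Hochberg adjustment over all genes, and called at an adjusted p under 0.05 with a difference of at least 1 log2. The step was tested on simulated data. The EPZ004777 arrays were fitted alike. Levels in RS4;11 and SEM, 2 arrays each, come from the 10 DMSO arrays normalized together.

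Named genes are the 12 furthest called genes in each direction, passing over unnamed and Y-linked symbols, XIST and TSIX. Of these, SNX10 (8.59 ± 0.62), CES1† (8.55 ± 0.12) and KCNJ16 (-8.80 ± 0.12) are not described above. SNX10 read 5.47, 2.82 and 3.05 in REH, and its difference was 9.50 ± 0.11 without REH replicate 1. Also named are up to 6 called members of each of 39 lists, uncalled members named as such, and a fixed set. That set includes MEIS1, DOT1L, MEN1, KMT2A, ETV6, FLT3 and lineage genes. The lists, the rule and the alternatives were chosen with earlier results of these data known. CD37, CD58, CFD, CSF1R, CTSG, DAPP1, HLA-DRA, ICAM2, IL1B, IL2RG, LILRA2, LMO2, LTF, LY96, S100A9 and SRGN fall outside the rule and were named after their values were seen. The promoters shown are those of the furthest called granule and pre-B cell receptor genes with an entry in the RefSeq table, 2 for each list. IGHM has no entry. The number of arrays limits the precision.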

Additional observations from a re-analysis of the deposited data

How the results depend on the processing

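Of 4674 values of 206 named genes under the alternatives, 4536 kept their direction and their side of the threshold, 121 lost the call, 11 gained it and 6 changed sign. Without the marked probe sets CD79B was at 0.76. With the actin value as a covariate FYN was at 0.19, PBX4 at 0.39, MCM2 at 0.96, HK1 at 0.25 and MPO at 0.39. The actin values of the lines do not overlap, and with that covariate 3302 genes were called, 1314 of them higher in REH. On the deposited values 5394 genes were higher in MOLM-13 and 1601 in REH in DMSO, and 5600 and 1591 in EPZ004777. With no threshold on the difference 10101 genes passed in DMSO (5063 and 5038 by direction) and 11962 in EPZ004777 (6146 and 5816). A test against a difference of 1 log2 (limma treat) called 3471, 1606 of them higher in MOLM-13. Leaving out each array in turn gave 5107 to 5292 genes in DMSO and 5141 to 5265 in EPZ004777. PBX4, MCM2, BAX and TAP1 are among the calls that 1 array decides: PBX4 was at -0.91 and MCM2 at -0.92 without REH replicate 3, and BAX at 0.86 and TAP1 at -0.96 without REH replicate 1. The medians of the class I, interferon, G1, stem cell, proliferation, V(D)J, sterol, and DOT1L and menin lists changed sign or reached 0 on the deposited values.

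Replicate numbers were not shown to pair the samples: same-numbered deviations correlated at 0.09, 0.15 and 0.13 over genes, though each array correlated best with its own number. With the replicate block 5216 genes were called in DMSO and 5217 in EPZ004777. The cause of a value that changed was not tested.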
